A study of Mus musculus with 2 samples.

Results

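Fibroblast subset markers are genes whose transcripts mark the alveolar, adventitial and activated fibroblasts of the lung. Probes were taken from a fixed list of 10 symbols through the RefSeq accession on the array: Pdgfra, Tcf21, Inmt, Pi16, Dpt, Fap, Sfrp1, Lrrc17, Thy1 and Pdgfrb. All 10 were measured, of 15495 genes measured on both arrays, and each rested on 1 probe. The rule for the probes uses gene names and no signal, but the list was drawn up with earlier results of these data known, so the share of its members past a fold is a description.

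The study measured gene expression in whole lung with 1-colour arrays. There was 1 array of an HSP27-overexpressing transgenic C57BL6/N lung and 1 array of a C57BL6/N lung without the transgene. Both samples came from animals labelled male and 6 weeks old that had received bleomycin into the trachea at 1.25 mg/kg, and lungs were taken 14 days later. Neither group was left untreated, so the response to bleomycin itself was not measured. HSP27, the product of Hspb1, is a chaperone of the small heat shock family and binds actin. The labels give neither the promoter, the expressing cell type nor the species of the transgene, and do not say whether a sample was 1 animal or a pool.

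With 1 array per group there was no test between groups and no error between animals, and no p-value is given. Values are the Agilent processed signal, in fluorescence units. Differences are log2 signal after each array's 75th percentile (1426 on the transgenic array, 1287 on the C57BL6/N array) was subtracted, transgenic minus C57BL6/N. Over all 15495 genes the median difference was -0.04, and the central 95% of values ran from -0.92 to 1.24. Counts refer to genes past 1.5-fold. The technical spread of a difference, taken from probes printed in 10 spots, had a median SD of 0.11 for the dimmest and 0.07 for the middle and brightest of 3 equal groups of 105 probes. The array software's own error was about 10% of the signal of each member, which makes an SD of 0.20 for a difference between single spots.

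The arrays also differed in ways that touch every result below. Xist, the RNA of the inactive X chromosome in female cells, could not be told from background on the transgenic array and read 521 and 330 at its probes on the C57BL6/N array, against the male label of that sample. The Y-linked gene Ddx3y read 2437 on the transgenic array and 508 on the C57BL6/N array. Hspb1 read 53554 and 41040, a difference of 0.24. Markers of other tissues stood apart as well. All 8 measured cardiac muscle genes were past 1.5-fold upward on the transgenic array, and 4 more (Mb, Sln, Ckmt2 and Actn2) were well above background there alone. Among all measured genes 10.2% were past 1.5-fold upward. The signal summed over the 12 cardiac genes was 33.5 times the array's 75th percentile on the transgenic array and 2.03 times on the C57BL6/N array. For 10 white fat cell genes the sums were 26.5 and 0.677, with 5 of 6 measured genes higher and a median of 3.72. Most of the fat sum on the transgenic array came from 1 gene, which read 26422 there. With a stricter filter on dim probes 1 of 3 fat genes was higher and the median was 0.24, and without a filter it was 5.07. The stricter filter asked for 4 times the lowest signal well above background on both arrays. It therefore dropped genes that were bright on the transgenic array and dim on the C57BL6/N array. Among these were Car3 (5631 and 25.29) and Retn (1188 and 27.75). Of the other fat genes, Adipoq, Plin1 and Pck1 were above background only on the transgenic array and Lep on neither. For 8 basal airway cell genes the sums were 5.53 and 0.767, and all 7 measured genes were higher, or 6 of 7 with the brightest probe of a gene. The probes of Trp63, one of the 7, disagreed, at -0.23 and 2.22. Fibroblasts of heart, fat and airway tissue can share markers with those of the lung, and the part of these tissues in the differences below was not tested.

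Fibroblasts make and hold the connective tissue of the lung. Alveolar fibroblasts lie in the walls of the air sacs, whereas adventitial fibroblasts form the sheath around larger vessels and airways. After bleomycin some fibroblasts take on an activated state, in which they deposit collagen and other matrix that stiffens the tissue. In whole lung RNA, more cells of a type and more RNA per cell cannot be told apart.

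In the transgenic lung the adventitial markers and part of the activated markers were higher than in the C57BL6/N lung, and the alveolar markers were within 1.5-fold. Of 10 members, 4 were at least 1.5-fold higher (40.0%) and 0 lower, where 10.2% of all measured genes were higher by that fold and 8.31% lower. After cyclic loess in place of percentile scaling these shares were 12.5% and 6.27%. At 2-fold, 1 member was higher and 0 lower, against 3.81% and 1.87% of all genes. The 4 were the adventitial markers Pi16 and Dpt and, among markers of activated cells, Fap and Sfrp1. The median difference over the members was 0.22, and single members ran from -0.49 for Inmt to 1.73 for Sfrp1. The difference was positive for 7 members and negative for 3.

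**Figure D1:**
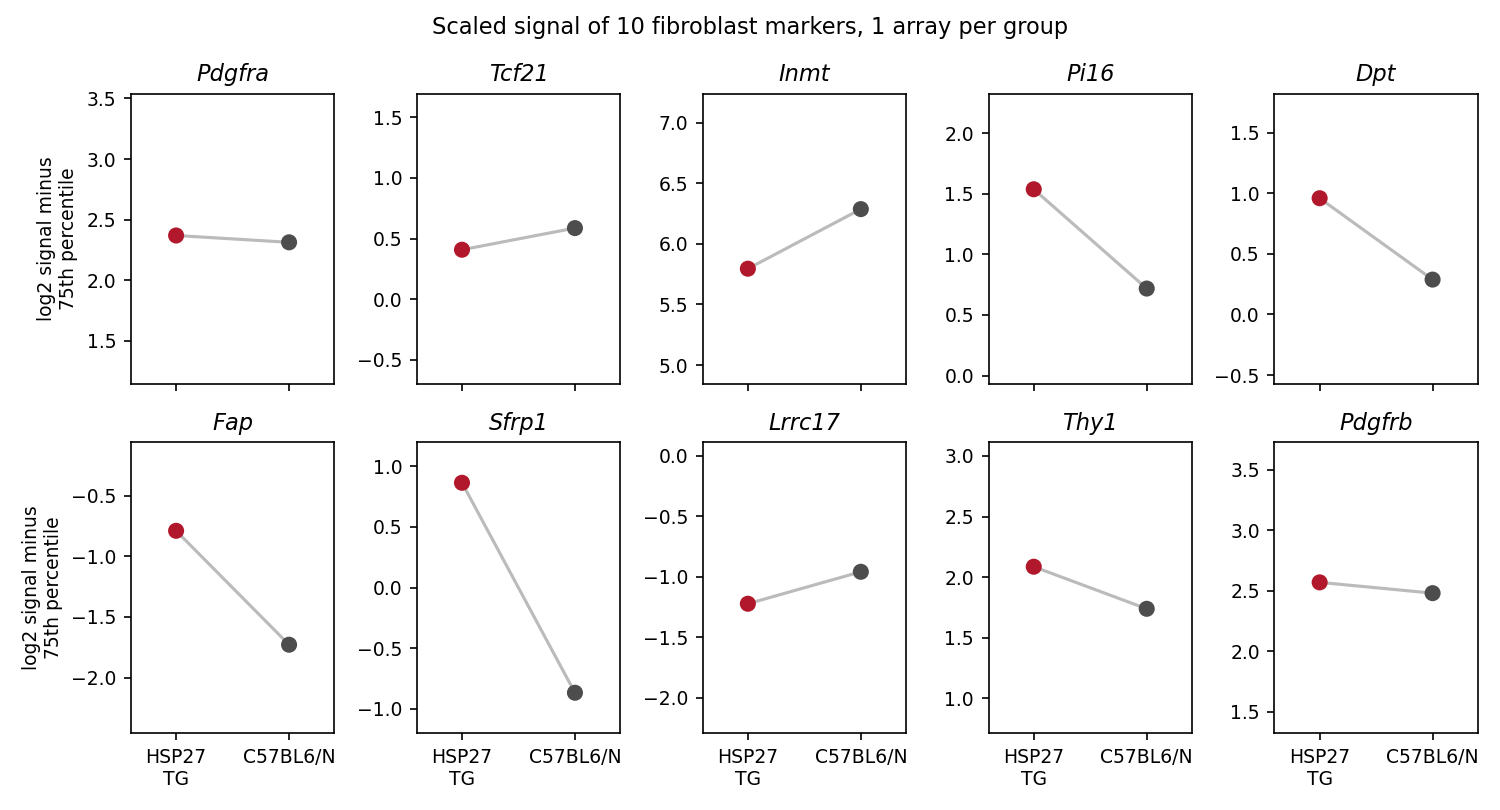
Scaled signal (log2 signal minus the array's 75th percentile) of the 10 markers, with the transgenic array on the left and the C57BL6/N array on the right of each panel. Every panel spans the same number of log2 units, and points are single array values without error bars. The steepest line is that of Sfrp1 (1.73), followed by Fap (0.94), Pi16 (0.82) and Dpt (0.67).

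The alveolar markers did not differ by 1.5-fold. Pdgfra, the receptor tyrosine kinase for platelet-derived growth factors (PDGF) that marks most lung fibroblasts, read 7367 on the transgenic array and 6394 on the C57BL6/N array, a difference of 0.06 after scaling. Its probe was printed in 10 spots. They ran from 6803 to 7804 (median 7335) on the transgenic array and from 5960 to 6633 (median 6418) on the C57BL6/N array. After scaling the spot values overlapped, and the difference was smaller than the SD of a spot difference for this probe, 0.07. Tcf21, a basic helix-loop-helix factor needed for lung mesenchyme and expressed in alveolar fibroblasts, read 1891 and 1932. The difference of -0.18 was smaller than the software error but beyond the spread of repeat spots. Inmt, a methyltransferase of indole amines that is abundant in alveolar fibroblasts, read 79195 on the transgenic array and 100500.3 on the C57BL6/N array. Its difference of -0.49, 1.41-fold lower in the transgenic lung, was beyond both measures of technical spread but short of 1.5-fold. Of all genes, 12.1% lay below it.

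The adventitial markers were both higher in the transgenic lung. Pi16, a peptidase inhibitor family protein that marks adventitial fibroblasts, read 4139 on the transgenic array and 2116 on the C57BL6/N array, 1.76-fold higher after scaling (log2 0.82), and 5.69% of all genes had a larger difference. Dpt (dermatopontin), a matrix protein that binds decorin, marks fibroblasts of the same kind in many organs. It read 2773 and 1571, 1.59-fold higher (log2 0.67). Dpt was also printed in 10 spots, of which 2 on the C57BL6/N array were marked as outliers by the software and left out. The remaining spots ran from 2672 to 2879 (median 2781) on the transgenic array and from 1512 to 1604 (median 1583) on the C57BL6/N array. They did not overlap after scaling, the closest pair being 0.59 apart, and the SD of a spot difference was 0.05. This covers repeat spots of the same RNA and not animals. Both genes are also expressed by stroma of fat and heart, whose marker sums were those given above.

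**Figure D2:**
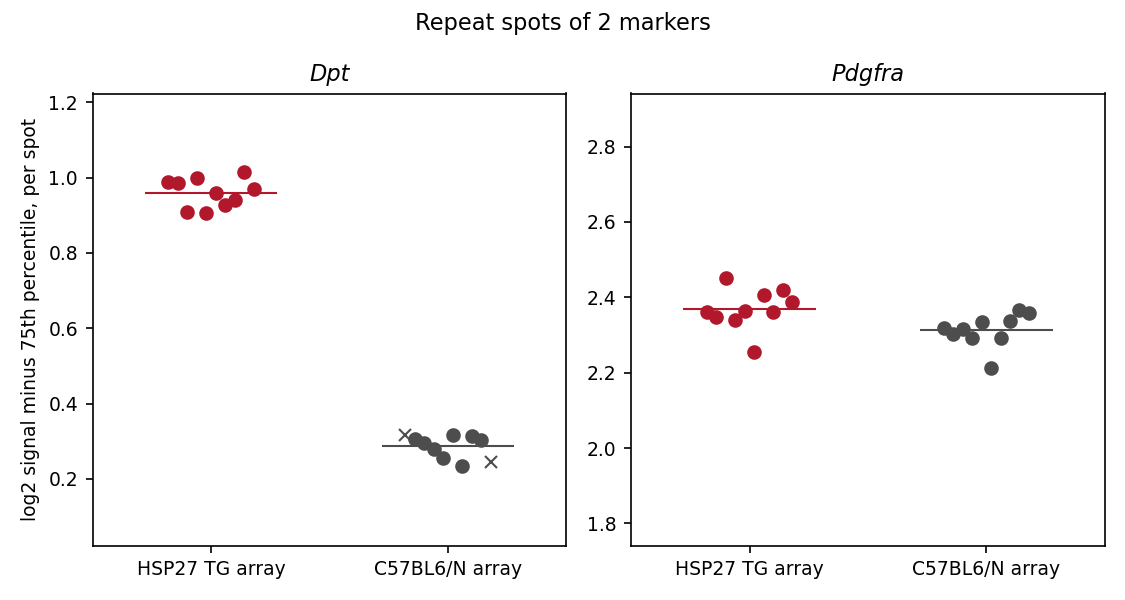
Scaled signal of each repeat spot for Dpt and Pdgfra on the transgenic array (left in each panel) and the C57BL6/N array (right). Circles are spots used, crosses are the 2 Dpt spots left out, and lines are means of the spots used. Dpt spots of the arrays are apart, with means of 0.96 and 0.29, while Pdgfra spots overlap, with means of 2.37 and 2.31.

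The upstream sequences of the adventitial pair are shown beside those of the alveolar pair Tcf21 and Inmt, since the first pair was above 0 and the second below it. Each is the 250 bases before the annotated start, 5′ to 3′ on the gene's strand, from RefSeq with build GRCm38.p6. The table held a promoter for 6 of the 10 members. Capitals mark CANNTG, the E-box that factors of the Tcf21 family bind, searched on both strands.
Pi16, chr17:29318632-29318881, + strand: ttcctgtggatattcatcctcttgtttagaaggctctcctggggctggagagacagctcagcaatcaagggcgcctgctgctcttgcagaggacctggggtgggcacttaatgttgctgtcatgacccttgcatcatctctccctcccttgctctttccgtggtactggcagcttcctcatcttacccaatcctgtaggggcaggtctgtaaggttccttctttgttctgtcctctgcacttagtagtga
Dpt, chr1:164796413-164796662, + strand: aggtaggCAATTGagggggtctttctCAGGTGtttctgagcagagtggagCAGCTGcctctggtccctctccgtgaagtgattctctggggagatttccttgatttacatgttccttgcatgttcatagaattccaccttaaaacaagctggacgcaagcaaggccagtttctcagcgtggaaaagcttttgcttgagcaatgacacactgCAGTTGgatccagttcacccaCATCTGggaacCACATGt
Tcf21, chr10:22820144-22820393, - strand: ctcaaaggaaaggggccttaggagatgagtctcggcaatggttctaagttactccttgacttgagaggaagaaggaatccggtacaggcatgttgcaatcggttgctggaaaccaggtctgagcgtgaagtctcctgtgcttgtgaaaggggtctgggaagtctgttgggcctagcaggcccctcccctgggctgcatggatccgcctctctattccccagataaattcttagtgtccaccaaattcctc
Inmt, chr6:55174991-55175240, - strand: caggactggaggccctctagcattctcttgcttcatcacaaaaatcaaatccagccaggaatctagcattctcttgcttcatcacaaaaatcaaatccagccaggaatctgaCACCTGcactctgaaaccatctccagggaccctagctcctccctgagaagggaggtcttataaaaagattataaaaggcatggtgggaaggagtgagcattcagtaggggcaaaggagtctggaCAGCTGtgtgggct

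Of the 4 windows printed, that of Dpt held 6 E-boxes and that of Inmt 2, while those of Pi16 and Tcf21 held 0. The windows of Pdgfra, an alveolar marker at 0.06, and Lrrc17, at -0.26, were not printed and held 1 and 2. Of 32851 promoters of the same length, 66.2% held at least 1, with a median of 1. Among the 4 printed, the form CAGCTG, which is itself an E-box, was in the windows of Dpt and Inmt, and in 13.0% of all promoters. The TATA sequence TATAAA, also searched on both strands, occurred at 2 places upstream of Inmt, 80 and 69 bases before the start, and in 12.4% of all promoters. None of these 4 windows held the AP-1 motif TGANTCA, which was in 6.75% of all. The adventitial pair thus shared its direction on the arrays but not its count of E-boxes, and a match is a description of letters, not a binding site.

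The markers of activated fibroblasts were split. Sfrp1, a secreted protein that binds Wnt ligands and is known from transitional fibroblasts of the mouse lung after bleomycin, read 2596 on the transgenic array and 704.9 on the C57BL6/N array. It was 3.32-fold higher after scaling, the widest difference of the list, and 1.11% of all genes had a larger one. Fap, a serine protease on the surface of activated fibroblasts, read 825.3 and 388.2, 1.92-fold higher (log2 0.94), with 4.32% of all genes above it. Lrrc17, a secreted leucine-rich repeat protein that restrains osteoclast formation in the mouse, read 611.1 and 662.1. Its difference of -0.26 was beyond the spread of repeat spots but short of 1.5-fold. On the C57BL6/N array the signal of Fap was 32.5 times the lowest one well above background there.

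Thy1 and Pdgfrb are shared with other cells. Thy1, a surface protein on a lipid anchor found on fibroblasts and on mouse T cells, read 6055 on the transgenic array and 4295 on the C57BL6/N array, 1.27-fold higher (log2 0.35). For 11 measured T cell genes the median was -0.18, with 0 higher by 1.5-fold and 2 lower. The lowest was the adhesion molecule Cd2, at -0.90. Pdgfrb, the receptor for dimers of PDGF-B on fibroblasts and pericytes, read 8465 and 7182, a difference of 0.09. Among 14 pericyte genes, 2 were higher and 0 lower (median 0.10, or 0.05 with the brightest probe). Of all genes, 10.2% were higher and 8.31% lower. Rgs5, which dampens G protein signals in pericytes, was at 1.27 and the potassium channel gene Kcnj8 at 0.76, against -0.11 for Cox4i2 and -0.04 for Higd1b, a pair chosen after their values were seen. Rgs5 and Kcnj8 are expressed in heart muscle or its vessels too, and the part of heart tissue in their differences was not tested.

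**Figure D3:**
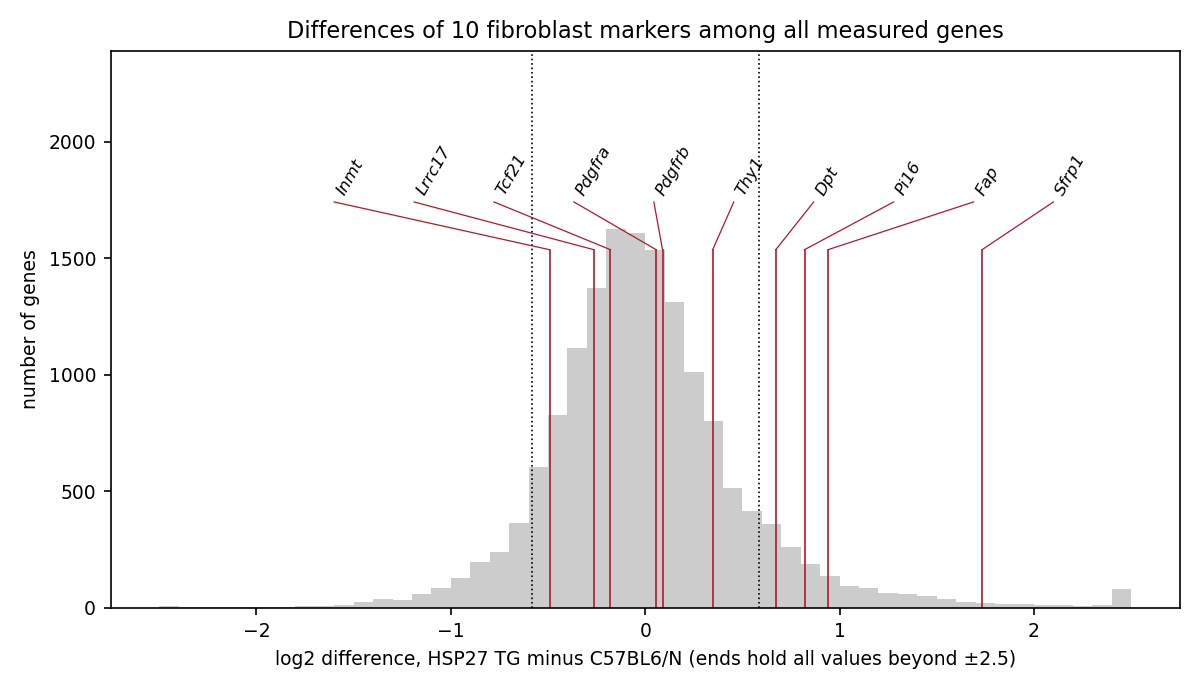
Number of genes by log2 difference, transgenic minus C57BL6/N, for all 15495 measured genes, with red lines at the 10 markers and dotted lines at 1.5-fold. Inmt, Lrrc17 and Tcf21 lie left of 0, and Dpt, Pi16, Fap and Sfrp1 lie right of the upper dotted line.

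Further genes of each subset, from lists that do not contain the 10 members, were counted the same way. These lists too were chosen with earlier results of these data known, so their counts are a description and no independent check. Each count stands beside 10.2% of all genes higher and 8.31% lower. For 20 further alveolar fibroblast genes the median was -0.34, against -0.04 over all genes, with 0 higher by 1.5-fold and 4 lower, or 2 lower with a normexp background correction. The lowest were the amino acid transporter gene Slc7a10 (535 on the transgenic array and 1160 on the C57BL6/N array, difference -1.26), the transcription factor gene Foxf1 (2653 and 4639, -0.95) and the ligand gene Wnt2 (74.3 and 124, -0.88). Foxf1 is also expressed in lung endothelium, and for 12 endothelial genes the median was -0.69, with 8 lower by 1.5-fold and 0 higher. For 10 alveolar epithelium genes the median was -0.31, with 1 lower and 0 higher. That median ran from -0.39 with the brightest probe to -0.15 with quantile normalization. A lower median was thus not particular to the alveolar fibroblast list. Of 9 measured lipofibroblast genes, which mark lipid-storing alveolar fibroblasts, 2 were higher and 0 lower (median 0.31). These were the hormone receptor gene Pth1r at 0.94 and Lpl, the lipoprotein lipase that fat and heart also make, at 0.74.

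In the adventitial list, 8 of 22 genes were higher and 1 lower, and the median was 0.37, or 6 higher with normexp. The chemokine gene Ccl11 read 424 on the transgenic array and 114 on the C57BL6/N array (difference 1.75). Igfbp4, which binds insulin-like growth factors, read 1719 and 465 (1.74), and Cd248, encoding a stromal surface glycoprotein, read 7536 and 2674 (1.35). Pcolce2, an enhancer of procollagen cleavage, was the 1 lower gene, at 6827 and 10778 (-0.81). Dpp4, the surface peptidase closest to Fap in sequence and a marker of Pi16-positive fibroblasts, read 1953 and 2523, a difference of -0.52. So Fap and Dpp4 differed in opposite directions, as did Pi16 and Dpp4. The difference of Dpp4 was within 1.5-fold, and which cells gave its signal was not tested.

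In the activated list, 12 of 19 measured genes were higher and 0 lower, with a median of 0.94. Inhba, encoding a subunit of activin, read 792 on the transgenic array and 97.7 on the C57BL6/N array, and its difference of 2.87 was the largest of the list, ahead of Grem1 and Cthrc1. The direction was not shared by all. Postn, a matricellular protein of activated fibroblasts, read 9676 and 10858 (-0.31) and Aspn, a small proteoglycan, read 723 and 728 (-0.16), a pair singled out after their values were seen. The list holds the smooth muscle genes Acta2 and Tagln, and 8 of 10 smooth muscle genes were higher and 0 lower (median 0.92).

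Inflammatory fibroblast genes were higher in 10 of 12 cases and lower in 0 (median 1.32), led by the acute phase gene Saa3, the protease inhibitor gene Serpina3n (5047 and 685, difference 2.73) and Timp1. Macrophages and epithelium express several of these genes. Among 9 measured peribronchial fibroblast genes, 4 were higher and 0 lower (median 0.22). With normexp 3 were higher (median 0.15), and without the filter on dim probes 5 of 10 (median 0.54). They included Actc1, the cardiac actin, at 1.32, and Pdgfrl, which encodes a protein like the PDGF receptors, at 1.16. Mesothelial genes, of the cells that cover the lung, had 1 of 11 higher and 0 lower (median 0.09), the 1 being the transcription factor gene Wt1 at 0.83.

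**Figure D4:**
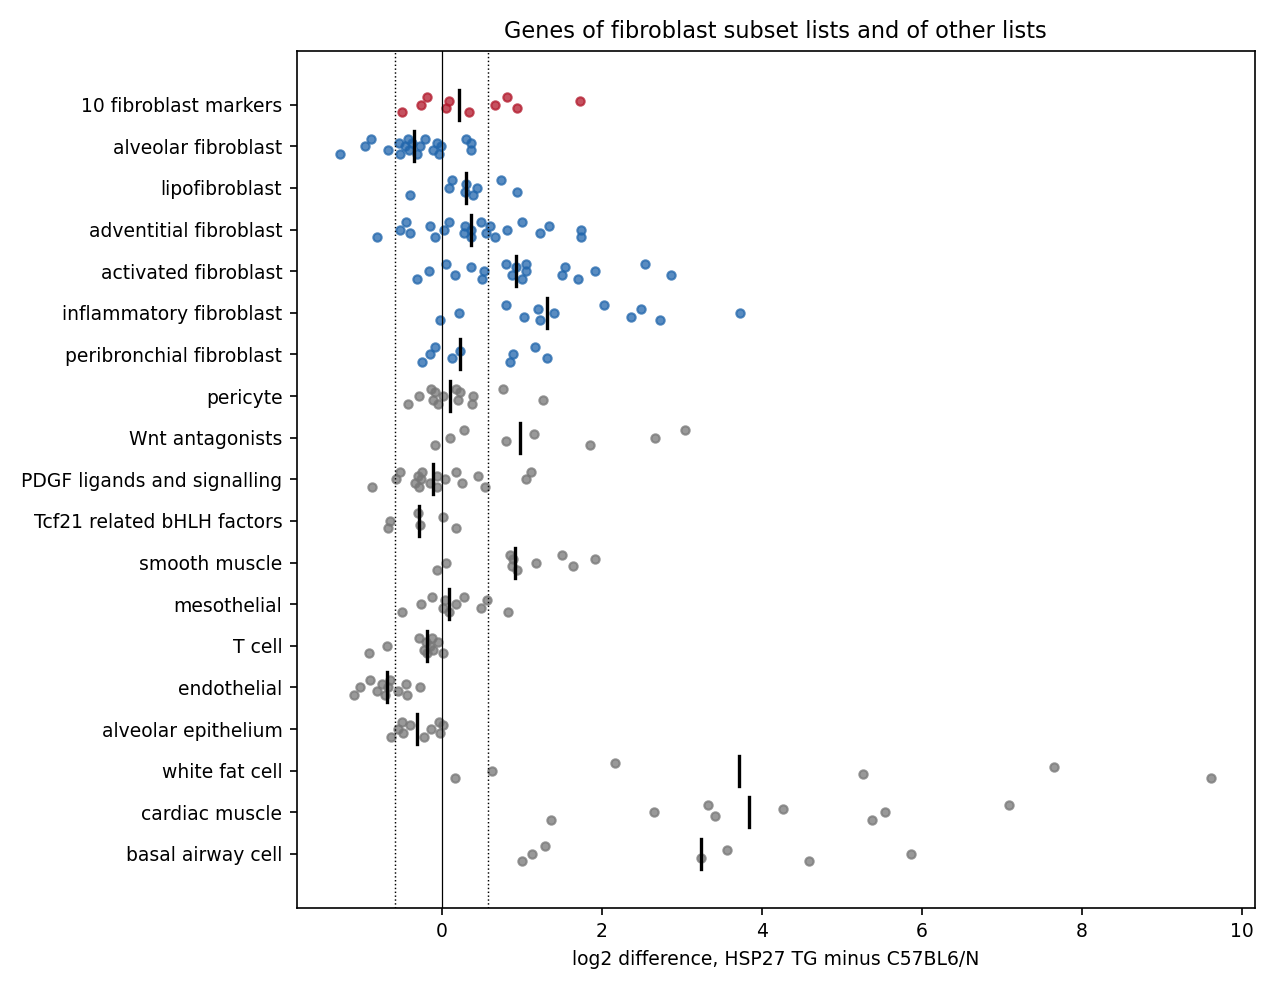
Log2 difference, transgenic minus C57BL6/N, of each measured gene in the list of 10 markers (red), further fibroblast lists (blue) and other lists (grey). Points are genes, black bars are list medians, and dotted lines stand at 1.5-fold. Medians are -0.34 for the alveolar, 0.37 for the adventitial and 0.94 for the activated fibroblast list. The white fat cell and cardiac muscle lists reach 3.72 and 3.84. With a stricter filter, which drops genes dim on either array, the fat median is 0.24 over 3 genes.

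The partners of individual members were examined last. PDGF ligands signal through Pdgfra and Pdgfrb. Pdgfc, a ligand of Pdgfra, read 1089 on the transgenic array and 475 on the C57BL6/N array, a difference of 1.05. The other ligands were within 1.5-fold: Pdgfa, the main ligand made by alveolar epithelium, was at -0.29, Pdgfd at -0.28 and Pdgfb at -0.06. The 2 probes of Pdgfb were at -0.28 and 0.16. The median over 18 ligand and signalling genes was -0.11, or -0.21 with the brightest probe. Of the 18, 2 were higher and 1 lower, near the 10.2% and 8.31% of all genes. Besides Pdgfc these were the growth-related factor gene Myc at 1.11 and Sos1, an activator of Ras, at -0.87. The receptors themselves were at 0.06 and 0.09.

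Relatives of Sfrp1 were higher as well. The 4 other secreted frizzled-related genes measured were all past 1.5-fold upward in the transgenic lung. Frzb read 227 on the transgenic array and 25 on the C57BL6/N array (3.04), Sfrp5 read 153 and 21.7 (2.67), Sfrp4 read 242 and 98.2 (1.15), and Sfrp2 read 1467 and 759 (0.80). Frzb and Sfrp5 were dim on the C57BL6/N array, whose lowest signal well above background was 11.9. The unrelated Wnt antagonist Dkk2 was at 1.85, Notum at 0.28, Dkk3 at 0.10 and Wif1 at -0.09, the last 3 named after their values were seen. Over the list, 5 of 8 measured genes were higher and 0 lower (median 0.98), or 3 of 6 with a stricter filter on dim probes (median 0.54). Among all genes 10.2% were higher and 8.31% lower. Frzb, Sfrp2, Sfrp5 and Dkk2 are expressed by stroma or cells of other organs too, and the part of such tissues was not tested.

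Tcf21 acts as a dimer with ubiquitous E proteins. Of 6 measured genes for related helix-loop-helix factors, 0 were higher and 2 lower, where 10.2% of all genes were higher and 8.31% lower. The median of the 6 was -0.28, against -0.04 over all genes. In 4 of 9 alternatives 1 gene of this list was lower. Without the filter on dim probes 2 of 9 genes were higher and 2 lower, with the median at 0.01. Tcf4, an E protein, was at -0.65 over 2 probes (from -0.80 to -0.50), and Tcf15 at -0.68. Twist1, Msc and Hand2 were not well above background on either array.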

How the data were processed

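The deposited array files give the intensity of every spot as the authors' Agilent Feature Extraction 11.5.1.1 wrote it, per the file headers, with background subtracted and spatial trends removed within the array and nothing normalized between arrays. The deposited series table is the same intensity: all 39030 single-spot probes equalled it within 0.1% on each array. Both arrays share a slide and scan.

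Control and outlier spots were left out, log2 signals of repeat spots averaged and each array's 75th percentile subtracted. A probe was used if at least 50% of its spots were well above background on both arrays, and none was saturated. A gene is the mean of its probes. Accessions were matched without version to a GRCm38.p6 gene table, which named 27508 of 39429 probes (69.8%). The array headers name mm9. A gene on 1 array alone enters no count or median.

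The members and all 20 further lists were chosen with earlier results of these data known. Named genes are the members, up to 3 highest and 3 lowest genes past 1.5-fold per list, PDGF ligands, frizzled-related genes, Dpp4 and label checks. Of the genes so named, 1 is not reported here. With 2 arrays, likeness of pattern across samples is undefined. The steps were tested on simulated data. Python 3.11.15, numpy 2.4.6, pandas 2.3.3, matplotlib 3.10.9, R 4.3.3 and limma 3.58.1 were used. The 9 alternatives were median scaling, quantile normalization, cyclic loess, normexp (offset 50, on median pixel signals, without 7 spots whose background reached their signal), no or a stricter filter on dim probes, outlier spots kept, the brightest probe and the deposited table. A 2-fold threshold was tried besides.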

Additional observations from a re-analysis of the deposited data

How the results depend on the processing

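No member changed sign under the 9 alternatives, and the same 4 were past 1.5-fold in each. Sfrp1 ran from 1.68 to 1.79, Fap from 0.82 to 1.01, Pi16 from 0.78 to 0.87 and Dpt from 0.59 to 0.73, with the lowest of each under normexp. With a 2-fold threshold, 1 member was higher. Of all genes past 1.5-fold, 55.1% were higher in the main processing and 66.5% with cyclic loess. No scaling moved the median of all genes by more than 0.1. Normexp left 2 alveolar fibroblast genes lower in place of 4, 1 pericyte gene higher in place of 2 and 0 PDGF genes lower in place of 1. The stricter filter left 3 Wnt antagonists higher in place of 5, 1 fat gene in place of 5 and 5 cardiac genes in place of 8, since fewer genes were measured, and without any filter 8 fat genes were higher. Under median scaling, quantile normalization and cyclic loess 2 mesothelial genes were higher in place of 1. The median of the basal cell list, 3.24, was 2.16 with normexp and 1.30 with the stricter filter. In 4 alternatives 1 T cell gene was lower in place of 2. Without the filter the median of the helix-loop-helix list was 0.01 over 9 genes, 2 of them higher; it was below 0 otherwise. No paired analysis was possible because each group had 1 array. The number of arrays limits the precision, since no spread between animals could be had.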
